A study of Mus musculus with 9 samples.

Results

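The 6 genes described here, Rora, Ahr, Maf, Nfkbiz, Hif1a and Runx1, encode transcription regulators of type 17 T cells, the lymphocytes that make IL-17. They were chosen by name, as the rows of the murine expression table that carry these symbols, and make up 6 of the 41388 genes in that table. All 6 are protein-coding genes, all were found, and all passed the minimum mean of 10 normalized counts, as did 11599 genes in total. The RNA came from murine Tc17 cells, the CD8+ counterpart of Th17 cells, which were raised from naive CD62L+CD44-CD8+ T cells of C57BL/6 lymph nodes and spleens. All cultures received plate-bound anti-CD3 (5 µg/ml), anti-CD28 (0.5 µg/ml), IL-2 (50 U/ml), TGF-β (0.5 ng/ml), IL-6 (30 ng/ml) and anti-IFN-γ (5 µg/ml) for 2 days. The Ctrl cultures held the solvent DMSO at 0.2%, the DMF cultures 20 µM dimethyl fumarate, and the DMF + GSH cultures 20 µM DMF with 50 µM reduced glutathione. Each group had 3 libraries, and the sample titles place replicate 1 of each group in batch 1 and replicates 2 and 3 in batch 2. The comparisons ask how DMF changes the regulators and whether added GSH changes that. Nothing in the labels says whether the libraries of a group came from separate mice, so the p-values measure the spread between these libraries.

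As background, a naive T cell that meets TGF-β and IL-6 takes on the type 17 programme, in which a core of transcription factors opens and drives the genes for IL-17A, IL-17F and the receptors of IL-1 and IL-23. Rora encodes RORα, a nuclear receptor that binds DNA as a monomer and acts at the Il17 locus. Maf encodes c-MAF, a basic leucine zipper factor that drives Il21 and Il10 in T cells, and Runx1 encodes a DNA-binding factor with a runt domain that works with the common subunit CBFβ. Ahr encodes the aryl hydrocarbon receptor, a sensor of small aromatic ligands needed for IL-22, and Hif1a the oxygen-regulated subunit of HIF-1, which turns on glycolysis. Nfkbiz encodes IκBζ, a nuclear member of the IκB family that co-activates IL-17 target genes. DMF is an electrophilic ester that reacts with thiols such as the one in GSH.

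In coordinates of GRCm38, Rora (ENSMUSG00000032238) lies on the forward strand at chr9:68653786-69388246 and Maf (ENSMUSG00000055435) on the reverse strand at chr8:115682942-115707794. Chromosome 12 holds Hif1a (ENSMUSG00000021109), on the forward strand at chr12:73901375-73947530, and Ahr (ENSMUSG00000019256), on the reverse strand at chr12:35497974-35535038. Chromosome 16 holds Nfkbiz (ENSMUSG00000035356) and Runx1 (ENSMUSG00000022952), both on the reverse strand, at chr16:55811375-55838899 and chr16:92601466-92826149. An antisense gene, Gm15283, overlaps Hif1a on the other strand. It held 10.3 to 73.7 normalized counts per library, and the sources used here do not say whether counting used strand.

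Promoter windows of 300 bases, from 250 bases before to 50 after a RefSeq transcription start site (GRCm38.p6), were matched for 3 of the 6 genes, Rora, Hif1a and Runx1. Those of Rora and Hif1a are printed because both genes were lower in all DMF libraries than in all Ctrl libraries. The windows are chr9:68653536-68653835 for Rora and chr12:73907617-73907916 for Hif1a, both on the forward strand. Capitals mark the core letters bound by the families of the regulators themselves, searched on both strands.
Rora: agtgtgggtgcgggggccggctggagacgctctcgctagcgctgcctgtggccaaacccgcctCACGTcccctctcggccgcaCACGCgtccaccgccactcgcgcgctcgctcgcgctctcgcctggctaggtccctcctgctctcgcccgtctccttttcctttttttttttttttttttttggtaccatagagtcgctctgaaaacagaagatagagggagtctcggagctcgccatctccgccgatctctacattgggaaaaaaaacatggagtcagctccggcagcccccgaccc
Hif1a: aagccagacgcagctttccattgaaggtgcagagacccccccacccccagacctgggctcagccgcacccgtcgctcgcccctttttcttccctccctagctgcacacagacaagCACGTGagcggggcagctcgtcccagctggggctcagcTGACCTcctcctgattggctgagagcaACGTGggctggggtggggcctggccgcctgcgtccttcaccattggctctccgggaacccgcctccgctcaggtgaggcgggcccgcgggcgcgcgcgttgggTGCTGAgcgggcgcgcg
The letters searched were GCGTG (the core bound by AHR), ACGTG (HIF), AGGTCA (ROR), TGTGGT (RUNX) and TGCTGA (MAF). Among 32851 such windows, 32.4% held GCGTG, 19.6% ACGTG, 16.3% AGGTCA, 16.8% TGTGGT and 19.5% TGCTGA. The Rora window held ACGTG once and GCGTG once, both on the reverse strand, with first bases at −187 and −167 from the start site. The Hif1a window held ACGTG in 3 matches, 2 of which overlap as the palindrome CACGTG, beside 1 match of AGGTCA on the reverse strand and 1 of TGCTGA. These matches describe the sequence and are not evidence of binding.

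The libraries held 7671772 to 14511926 reads in genes (median 11152111), and Ctrl replicate 3 was the shallowest. Of the marker genes, those of CD8 T cells were highest, with Cd8a at 9317 to 13778 and Cd8b1 at 2512 to 3731 normalized counts. Cd4 (0 to 4.40) and Ncr1 (0 to 2.08) were near 0 and the globin genes Hba-a1 and Hbb-bs were at 0. Not all markers of other cells were near 0. The CD4 T cell marker Zbtb7b had a mean of 62.2 and the B cell marker Cd79b a mean of 69.7, and the other markers on those lists had means of at most 4.46. The summed level of 5 myeloid markers was 79.0 to 272 in Ctrl, 58.2 to 72.8 with DMF and 87.5 to 94.3 with DMF + GSH. Every DMF library thus lay under every Ctrl and DMF + GSH library, as for Rora, Maf and Hif1a below. Such a lack of overlap was common, at 41.3% of all genes tested for DMF against Ctrl and 38.3% for DMF + GSH against DMF. Cd68 had the largest mean of the 5 markers (65.9). Lyz2 (0 to 119 in Ctrl, 2.12 to 10.6 with DMF) and Csf1r (0 to 58.3 and 0 to 5.81) did overlap. The sum of 272 was that of Ctrl replicate 3, where Lyz2 reached 119 and Csf1r 58.3. The summed level of 3 NK cell markers, nearly all of it Klre1, was 20.5 to 33.9 with DMF, 8.36 to 12.8 in Ctrl and 8.80 to 17.5 with DMF + GSH. The part of either in the results was not tested, and values without Ctrl replicate 3 are given below. Because these are bulk RNA samples, fewer cells that transcribe a gene and less RNA per cell cannot be told apart.

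Rora, Maf and Hif1a were lower with DMF than in Ctrl and Nfkbiz, Ahr and Runx1 did not pass the test. Of the 6 regulators, 3 had a p adj under 0.01 (limma, Benjamini-Hochberg over all genes tested), and all 3 were lower with DMF. In the same comparison 7.19% of all genes tested passed, 3.6% lower and 3.6% higher. The fitted change was below 0 for all 6 genes, with a median log2 fold change (log2FC) of −0.33, against 0.01 over all genes tested. Rora also passed the stricter rule with an absolute log2FC of at least 0.75, as did 2.89% of genes, and the other 5 did not. The DMF and Ctrl libraries did not overlap for 3 of the 6 regulators, against 41.3% of all genes tested, so that this count is near the background.

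**Figure D1:**
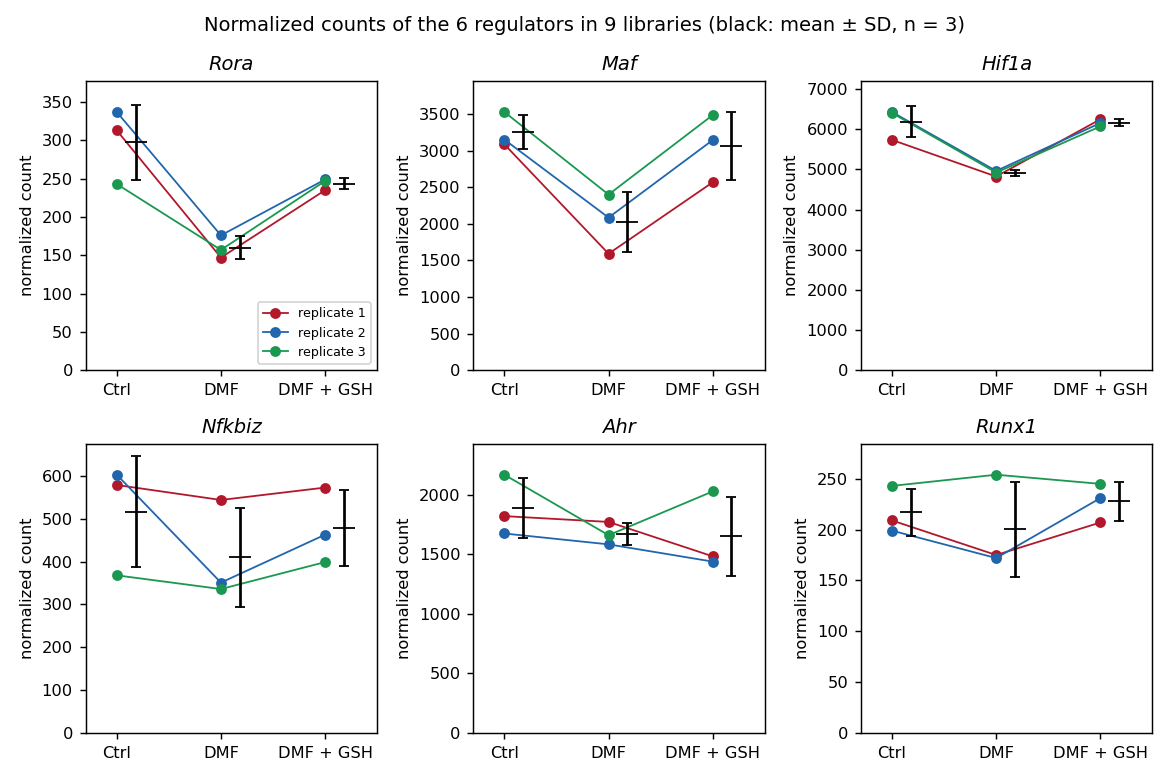
Normalized counts of each regulator (y axis, from 0) in Ctrl, DMF and DMF + GSH libraries (x axis). Coloured lines join libraries with the same replicate number, and black bars give the mean ± SD of 3 libraries. For Rora, Maf and Hif1a all 3 DMF points lie under all Ctrl and DMF + GSH points, whereas the groups overlap for Nfkbiz, Ahr and Runx1.

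Rora was at 313, 337 and 243 normalized counts in Ctrl replicates 1, 2 and 3, at 147, 176 and 157 in the DMF libraries, and at 235, 249 and 247 in the DMF + GSH libraries. The DMF libraries were the 3 lowest of the 9, and the Ctrl libraries spread more (SD 48.8) than those of the other groups (14.9 and 7.48). Between the means of 298 ± 48.8 in Ctrl and 160 ± 14.9 with DMF (SD, n = 3) the fitted level fell by 45.7% (log2FC −0.88 ± 0.135 SE, p adj = 0.00543, limma). The change was −1.08 in batch 1 and −0.78 in batch 2. The p adj did not pass without Ctrl replicate 1 (0.0460) or 2 (0.0261), DMF replicate 1 (0.0539) or 3 (0.0309) or DMF + GSH replicate 1 (0.0136), and with only the 6 libraries compared it was 0.0129. With the replicate number as a block it was 3.78e-06, and at most 0.000167 with any 1 library left out. Without Ctrl replicate 3 the log2FC was −1.04 (p adj = 0.00239).

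Maf was at 3088, 3153 and 3529 normalized counts in Ctrl, at 1592, 2086 and 2401 under DMF, and at 2569, 3146 and 3488 with DMF + GSH. In every group replicate 1 was lowest and replicate 3 highest, and the SD with DMF was 408. The difference was below 0 within each number and largest in replicate 1. The fitted level fell by 38.5% with DMF (log2FC −0.70 ± 0.0965 SE, p adj = 0.00423, limma), with −0.96 in batch 1 and −0.58 in batch 2. The p adj did not pass without Ctrl replicate 1 (0.0355), DMF replicate 1 (0.0466) or 3 (0.0124) or DMF + GSH replicate 1 (0.0122), without the batch term (0.0105) or with only the 6 libraries compared (0.0119). With the replicate block it was 1.13e-07, and under 0.01 with any 1 library left out. Without Ctrl replicate 3 the log2FC was −0.70 (p adj = 0.00439).

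Hif1a was at 5734, 6428 and 6405 normalized counts in Ctrl, at 4822, 4961 and 4920.5 under DMF, and at 6247, 6155 and 6071 with DMF + GSH. The spread was small, with SDs of 71.3 with DMF and 87.9 with DMF + GSH against 394 in Ctrl, where replicate 1 was lowest. The fitted level fell by 20.7% with DMF (log2FC −0.33 ± 0.0628 SE, p adj = 0.00743, limma), with −0.25 in batch 1 and −0.38 in batch 2. Hif1a did not pass without Ctrl replicate 1 (p adj = 0.0413), 2 (0.0356) or 3 (0.0109), DMF replicate 1 (0.0597), 2 (0.01 after rounding) or 3 (0.0424), or DMF + GSH replicate 1 (0.0151) or 2 (0.0108), nor with only the 6 libraries compared (0.0169). With the replicate block it passed (4.41e-05), also with any 1 library left out (at most 0.00133).

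Nfkbiz was at 579, 603 and 368 normalized counts in Ctrl, at 544, 351 and 336 under DMF, and at 573, 463 and 399 with DMF + GSH. It was lower with DMF in each of the 3 replicate numbers, but the size ranged from −0.09 in replicate 1 to −0.78 in replicate 2, and the groups overlapped. The log2FC was −0.33 with a 95% interval from −0.70 to 0.03 (p adj = 0.151, limma), the same estimate as for Hif1a with a wider error (SE 0.163 against 0.0628). With the replicate block the p adj was 0.0149. In that fit it passed without Ctrl replicate 3 (0.00713) or without DMF replicate 1 (0.00712), both with a log2FC of −0.44, but was at −0.15 (p adj = 0.256) without Ctrl replicate 2 and at −0.18 (p adj = 0.179) without DMF replicate 2. In the fit with the batch term, the log2FC ranged from −0.11 without Ctrl replicate 2 (p adj = 0.521) to −0.50 without Ctrl replicate 3 (p adj = 0.0317).

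Ahr was at 1821, 1675 and 2169 normalized counts in Ctrl, at 1772, 1584 and 1661 under DMF, and at 1483, 1439 and 2028 with DMF + GSH. Replicate 3 of Ctrl and of DMF + GSH stood above the rest, and the groups overlapped. The log2FC with DMF was −0.17 (95% interval −0.47 to 0.14, p adj = 0.378, limma). With 1 library left out it ranged from −0.06 without Ctrl replicate 3 to −0.27 without Ctrl replicate 2 in that fit, and was −0.03 with the block and without DMF replicate 3. Runx1 was at 209, 199 and 243 normalized counts in Ctrl, at 175, 172 and 254 under DMF, and at 207, 231 and 245 with DMF + GSH. It was lower with DMF in replicates 1 and 2 and higher in replicate 3 (log2FC −0.13, 95% interval −0.47 to 0.20, p adj = 0.521). Leaving out DMF replicate 2 brought it to 0, leaving out DMF replicate 3 to −0.30 and leaving out Ctrl replicate 3 to −0.07. With the replicate block the 95% interval of Ahr was −0.33 to −0.01 (p adj = 0.0820) and the p adj of Runx1 was 0.338.

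Adding GSH to DMF gave higher levels of Rora, Maf and Hif1a than DMF alone. These 3 passed with the replicate number as a block, which pairs the libraries, but none of the 6 regulators passed with the batch term. Libraries of different groups that shared a number correlated with 0.447 to 0.578 after subtraction of group means, and the batch term leaves part of this pairing out. With the batch term 0.819% of all genes tested passed. With the replicate number as a block 3 of the 6 passed, Rora, Maf and Hif1a, against 29.2% of all genes tested. In the same block fit 33.2% of genes passed between DMF and Ctrl, and again these 3 regulators. The DMF + GSH and DMF libraries did not overlap for 3 of the 6 regulators and for 38.3% of all genes tested, again near the background. This comparison shares the DMF libraries with the one above, so the values of both are given side by side and not as independent results.

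Rora had 244 ± 7.48 normalized counts (mean ± SD of 3 libraries) under DMF + GSH against 160 ± 14.9 under DMF (log2FC 0.61 ± 0.135 SE). Its p adj was 0.0158 in limma and 0.00023 under the block. Maf was at 3068 ± 464 against 2027 ± 408 (log2FC 0.61 ± 0.0965 SE), with a p adj of 0.0102 that lay next to the threshold and was 0.00972 with edgeR and 8.73e-07 with the block. Hif1a was at 6158 ± 87.9 against 4901 ± 71.3 (log2FC 0.33 ± 0.0628 SE, p adj = 0.0121, or 6.13e-05 under the block). Each of these 3 genes was higher with DMF + GSH in all 3 replicate numbers, and the block calls held with any 1 library left out (p adj of at most 0.00464 for Rora and 0.00110 for Hif1a). Without Ctrl replicate 3, which enters the fit only through the shared spread, all 3 passed with the batch term (0.00791, 0.00791 and 0.00979). Maf also passed without Ctrl replicate 2 (0.00978), DMF replicate 2 (0.00744) or DMF + GSH replicate 3 (0.00788). The p adj of Rora, Maf and Hif1a was 0.110, 0.0947 and 0.0957 without DMF replicate 1 and 0.0973, 0.0832 and 0.0924 without DMF + GSH replicate 1. The log2FC was 0.24 for Nfkbiz (95% interval −0.12 to 0.60), −0.04 for Ahr (−0.34 to 0.27) and 0.21 for Runx1 (−0.13 to 0.54), with p adj of 0.307, 0.873 and 0.340. With 1 library left out Nfkbiz ranged from 0.17 (DMF + GSH replicate 2 left out) to 0.34 (DMF replicate 1 left out), and was 0.09 with the block and without DMF replicate 2. In the same way Runx1 ranged from 0.07 (DMF replicate 2) to 0.37 (DMF replicate 3) and Ahr from −0.20 (DMF + GSH replicate 3) to 0.07 (DMF + GSH replicate 2).

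Between DMF + GSH and Ctrl none of the 6 regulators passed in limma, with or without the block, nor in edgeR. Of all genes tested 0% passed with the batch term, 222 had an unadjusted p under 0.05 in limma and 213 in edgeR. None of the 6 had groups that did not overlap, against 4.47% of all genes tested. Rora had a log2FC of −0.27 (95% interval −0.57 to 0.03, p adj = 1), with −0.41 and −0.43 in replicates 1 and 2 and 0.02 in replicate 3. With the replicate block the interval was −0.51 to −0.04 (p adj = 0.827). Its log2FC ranged from −0.18 without Ctrl replicate 2 to −0.43 without Ctrl replicate 3 (p adj = 0.958). The log2FC was −0.20 for Ahr, −0.10 for Maf, −0.09 for Nfkbiz, −0.01 for Hif1a and 0.07 for Runx1. For Ahr all 3 replicate numbers were below 0, and the interval with the block was −0.36 to −0.04 (p adj = 0.794). Without Ctrl replicate 3 the values of the 5 genes were −0.10, −0.09, −0.26, 0.01 and 0.13, and without Ctrl replicate 2 they were −0.30, −0.18, 0.13, 0.02 and −0.03. The interval was narrowest for Hif1a, from −0.15 to 0.13.

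**Figure D2:**
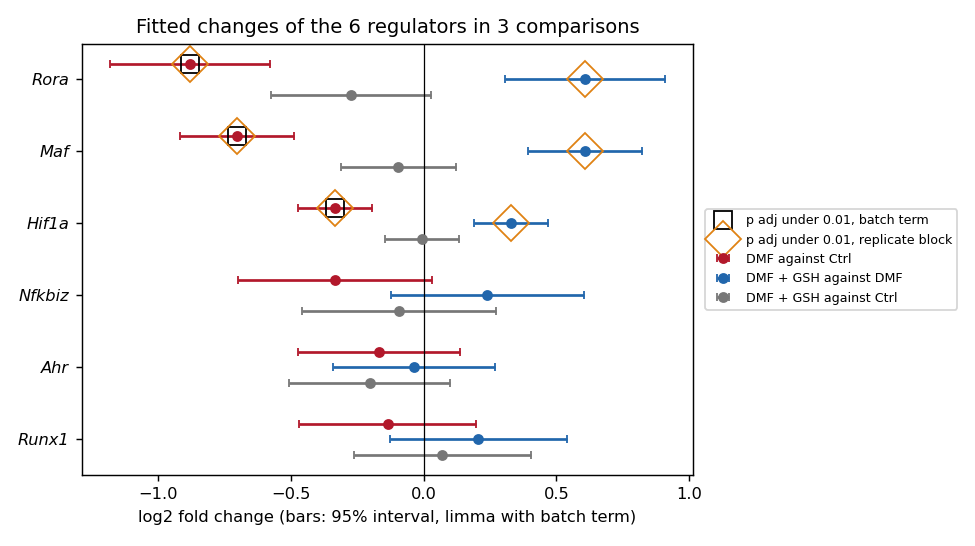
Fitted log2 fold change (x axis) of each regulator (y axis) in the 3 comparisons, with bars for the 95% interval of limma with the batch term. Squares mark a p adj under 0.01 with the batch term and diamonds with the replicate block. Rora, Maf and Hif1a carry both marks for DMF against Ctrl and a diamond only for DMF + GSH against DMF.

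The variation of each gene was also split by group and replicate number. This split uses the same values as the tests above and no share over all genes was computed, so it is a description. Of the sum of squares over the 9 libraries, on log2(normalized count + 1), the group accounted for 91.9% in Hif1a, 88.4% in Rora and 74.1% in Maf. It accounted for 23.2% in Ahr, 19.3% in Nfkbiz and 19.2% in Runx1. In those 3 genes the replicate number took the larger share, 49.1%, 63.2% and 60.9%, as against 21.5% in Maf, 5.39% in Rora and 2.65% in Hif1a. Nfkbiz was lowest in replicate 3 of each group, whereas Runx1 was highest there. After the mean of each replicate number was subtracted, Rora and Maf followed each other most closely of all pairs of the 6 genes (Pearson's r = 0.96 over the 9 libraries), then Maf and Hif1a (0.90) and Rora and Hif1a (0.87), and Ahr and Runx1 ran opposite (−0.41). These correlations are descriptions, since the libraries share groups and scaling.

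**Figure D3:**
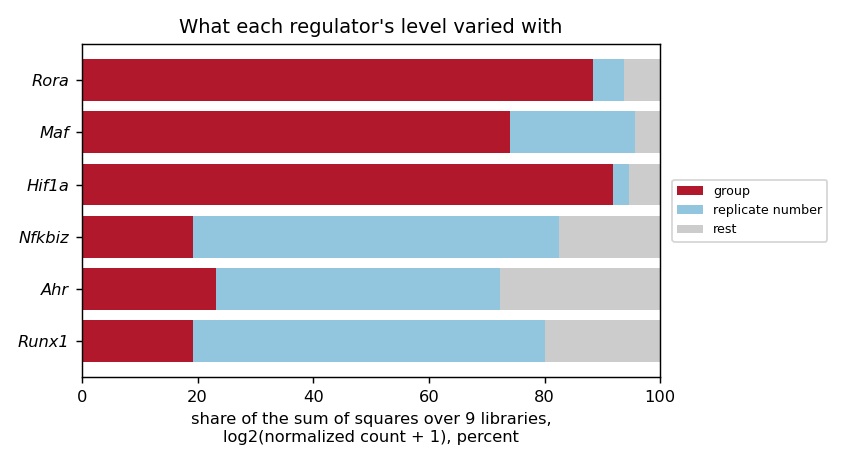
Share of each regulator's sum of squares over 9 libraries (x axis, percent, on log2(normalized count + 1)) that goes with the group, the replicate number or neither. The group takes 74.1% to 91.9% in Rora, Maf and Hif1a and 19.2% to 23.2% in the other 3 genes.

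Levels were compared between genes per kilobase of exon, as normalized counts divided by the exon length of all transcripts together. In Ctrl the order was Hif1a at 1050 ± 66.9 (SD, n = 3), Maf at 395 ± 28.9, Ahr at 306 ± 41.2, Nfkbiz at 103 ± 25.7, Rora at 22.8 ± 3.73 and Runx1 at 18 ± 1.93 normalized counts per kilobase. Hif1a lay above 96.7% of the genes tested and Runx1 above 18.1%. The ranges of neighbours in that order did not overlap except for Rora (18.6 to 25.8) and Runx1 (16.5 to 20.2). With DMF, Rora (11.3 to 13.5) lay under Runx1 (14.3 to 21.1) in every library, and the ranges of Maf (193 to 291) and Ahr (257 to 288) overlapped. With DMF + GSH both of these pairs overlapped, Maf at 312 to 423 against Ahr at 233 to 329, and Rora at 18 to 19.1 against Runx1 at 17.2 to 20.4. The reads per library numbered 139 to 363 for Rora, 165 to 311 for Runx1 and 4504 to 8290 for Hif1a.

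For each regulator, the genes with the most similar pattern over the 9 libraries were sought among 9646 genes with a mean of at least 50, after subtraction of the mean of each replicate number. Rora was closest to Sbno2 and Cdh23 (Pearson's r = 0.99 for both), Maf to Tsc22d4 and Rac2 (0.998 for both) and Hif1a to Ckap5 (0.999) and Arap2 (0.998). Nfkbiz was closest to Akap9 (0.99) and 2310001H17Rik (0.97), Ahr to Inpp5a and Mcrs1 (0.95 for both), and Runx1 to Fyn (0.98) and S100a10 (0.97). These values describe 9 libraries that share groups and scaling, and no p-value is given.

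Lists of genes around the regulators were counted in the same fit, to describe the company the 6 genes keep. The authors had reported Il17a, Il17f, Il21 and Ccr6 as lower, and Tbx21 and Ifng as higher, with DMF in these libraries. Counts on lists that hold these genes were thus known in part beforehand. Of 10 type 17 effector genes tested, 5 passed lower with DMF and 0 higher, against 3.6% of all genes in each direction, and the median log2FC of the 10 was −1.43. With 1 library left out, a choice made after seeing the data, the count was 1 without Ctrl replicate 1, 2 without Ctrl replicate 2 or DMF replicate 3, 3 without DMF replicate 1 and 4 to 6 without any other library, and it was 6 to 8 with the replicate block. The counts of the other lists with the batch term fell to 0 or 1 at the lowest. In all, 2 to 28 genes passed for DMF against Ctrl without Ctrl replicate 1 or 2 or DMF replicate 1 or 3, and 68 without DMF + GSH replicate 1, against 834 with all libraries, so calls of single genes given below can be lost in those fits. Il1r1, the signalling receptor for IL-1, fell from 649 ± 133 to 99.3 ± 43.3 normalized counts (log2FC −2.79, p adj = 0.00036), and Il17a fell by 2.15 on the log2 scale (p adj = 0.00305). Ccr6, the receptor for CCL20, fell by 1.88 (p adj = 0.00635) and Il17f fell by 1.39 (p adj = 0.00169). All 4 were higher with DMF + GSH than with DMF, and of the 4 Ccr6 alone did not pass there (p adj = 0.0212). For DMF + GSH against DMF 4 of the 10 passed, 2 without Ctrl replicate 1, and 0 without DMF replicate 3 or DMF + GSH replicate 1 or 2. In those last 3 fits 0 of all genes passed, whereas 5 to 8 of the 10 passed with the block and any 1 library left out. Of 8 factors that promote type 17 differentiation, 1 passed, Ikzf3 (Aiolos), lower with DMF (log2FC −0.41, p adj = 0.00661). Its size was near that of Hif1a and under that of Rora and Maf. Of 9 factors that restrain it, Eomes (log2FC 2.35, p adj = 0.00276) and Tbx21, which encodes T-BET (0.98, p adj = 0.00564), rose with DMF and Ets1 fell (−0.44, p adj = 0.00739). With the block 4 of the 9 passed higher and 4 lower, in a fit in which 33.2% of all genes passed.

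**Figure D4:**
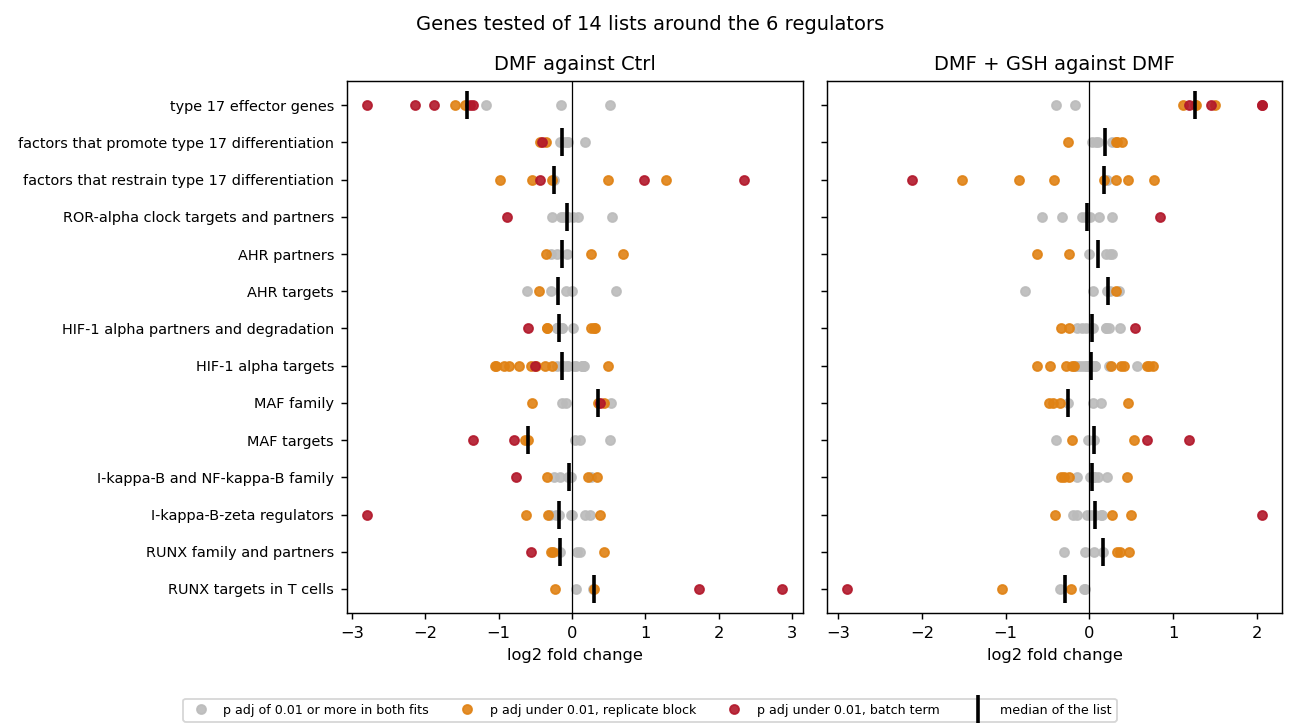
Log2 fold change (x axis) of the genes tested in 14 lists (y axis) for DMF against Ctrl (left) and DMF + GSH against DMF (right). Each point is a gene, coloured by the fit in which its p adj was under 0.01, and black ticks are list medians. The type 17 effector genes have the lowest median with DMF (−1.43), and the medians of the other 13 lists lie between −0.60 and 0.36.

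Among the genes of the circadian clock that carry ROR response elements, and their partners, 1 of 9 tested passed. This was Arntl, which encodes BMAL1 and is a known target of RORα. It fell from 423 ± 40.2 to 229 ± 26.1 normalized counts with DMF (log2FC −0.89, p adj = 0.00432) and was at 412 ± 45.6 with DMF + GSH (0.85 against DMF, p adj = 0.00809). The latter call was lost without DMF replicate 3 or DMF + GSH replicate 1 or 2, where 0 genes passed. Only 4 genes in all passed without DMF replicate 1 and 7 without Ctrl replicate 1, so it can be lost there too. The list's median was −0.07. Of 7 MAF target genes tested 2 passed, both lower with DMF (0 without Ctrl replicate 1 or 2 or DMF replicate 1 or 3, and 1 without DMF + GSH replicate 1), and the median was −0.60, with 4 below 0 and 3 above. Il10, which c-MAF also drives, was at 0.52 (p adj = 0.385). The genes that passed were Il21 (log2FC −1.34, p adj = 0.00248) and Ctla4, an inhibitory receptor (−0.80, p adj = 0.00336), and with the block 4 passed lower, in a fit in which 33.2% of all genes passed in either direction. Of 7 relatives of MAF, the small MAF proteins and their dimer partners, Nfe2l1 (NRF1) rose (log2FC 0.38, p adj = 0.00770), opposite in sign to Maf.

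Of 24 HIF-1 target genes 1 passed with DMF, Kdm3a, a histone demethylase induced by hypoxia, which fell (log2FC −0.51, p adj = 0.00432). The count was 6 lower without Ctrl replicate 3, 3 lower and 1 higher without DMF replicate 2, and 2 lower when DMF + GSH replicate 3 was left out. It was 0 without Ctrl replicate 1 or 2, DMF replicate 1 or 3 or DMF + GSH replicate 1. The median of the 24 was −0.13, with 16 below 0 and 8 above. With the block 10 passed lower and 1 higher, in a fit in which 33.2% of all genes passed. Among 12 partners and degradation factors of HIF-1α, Ep300, the acetyltransferase p300 that HIF-1 recruits, fell with DMF (log2FC −0.60, p adj = 0.00248). It was higher with DMF + GSH than with DMF (0.54, p adj = 0.00646), a call lost in the same 3 fits as that of Arntl. Without DMF replicate 1, 3 of the 4 genes that passed were type 17 effector genes, so the calls of Arntl and Ep300 cannot both have held there.

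The lists around Ahr held no gene past the threshold with the batch term. Of 6 AHR targets tested, Tiparp, a target that also represses the receptor, had the smallest p (log2FC −0.46, p adj = 0.0116, and 9.22e-05 with the block), followed by the repressor Ahrr (−0.29, p adj = 0.229). Of 6 AHR partners, Ncoa7 was at −0.36 (p adj = 0.0267) and the co-chaperone Ptges3 at 0.70 (p adj = 0.0352), and with the block Ptges3 and Hsp90ab1, whose near-identical copies can share reads, passed higher and Ncoa7 lower, in a fit in which 33.2% of all genes passed.

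Of 10 relatives and partners of Nfkbiz in the IκB and NF-κB family, Bcl3, a nuclear IκB protein like IκBζ, fell with DMF (log2FC −0.76, p adj = 0.00813). Of 11 genes for the receptors, adaptors and RNases that set Nfkbiz transcript levels, Il1r1 alone passed with the batch term. Of 7 relatives and partners of Runx1, the corepressor Tle3 fell (log2FC −0.56, p adj = 0.00722). Of 6 T cell genes with RUNX sites, Ifng, the cytokine of type 1 cells, rose from 106 ± 41.5 to 741 ± 165 normalized counts (log2FC 2.87, p adj = 0.00124) and Spp1, the cytokine osteopontin, also rose (1.74, p adj = 0.00202). Runx1 itself did not pass, and nor did its relative Runx3 (log2FC −0.28, p adj = 0.0116, and 0.000257 with the block).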

How the data were processed

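RNA-Seq was analysed in 9 libraries of murine Tc17 cells, 3 per group. The authors aligned single reads of 50 bp to Ensembl GRCm38 with STAR 2.4.0b, counted them per gene with featureCounts and deposited counts divided by 1 size factor per library (a normalized signal), of which 100% gave whole reads again (tolerance 0.01). The table the authors deposited also holds their log2 fold change, test score and p-value for 1 comparison, none of which was used. The test was limma-trend (limma 3.58.1, R 4.3.3) on log2(normalized count + 1) over 11599 genes with a mean of at least 10, with group and preparation batch, in 1 fit of all 9 libraries, with Benjamini-Hochberg adjustment and a threshold of 0.01. It had been foreseen for normalized values, and edgeR 4.0.16 for raw counts, which the table does not hold. edgeR's quasi-likelihood test on the recovered reads was an alternative. Also varied were the pseudocount (0.5 or 4), the minimum (none or 50), the scaling (TMM), the batch term (dropped, or replaced by the replicate number as a block) and the libraries (only the 6 compared, or each left out). The replicate numbers paired the samples: libraries of different groups correlated with 0.447 to 0.578 where they shared a number (9 pairs) and with −0.471 to −0.0621 where they did not, after subtraction of group means. On simulated counts for DMF against Ctrl with 200 of 11599 genes changed, the test called 88% of log2 changes of 1.5, 50% of those of 0.75 and 0 other genes. These counts were drawn without batch or replicate effects, so the rates need not hold for the real libraries. Positions and exon lengths come from GENCODE vM21 (GRCm38), in which 40254 of 41388 genes were found, and promoters from RefSeq. The members and lists were chosen with earlier results of these data known. Named beside the 6 regulators were, of each list, up to 4 genes past the threshold with the largest changes (where none passed, the 2 with the smallest p), and the 2 most similar genes. Gm15283, Hsp90ab1, Il10, Runx3 and single markers were named after their values were seen. Results for some single genes are not reported here. Python 3.11.15 was used with NumPy 2.4.6, pandas 2.3.3 and, for plots, Matplotlib 3.10.9.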

Additional observations from a re-analysis of the deposited data

How the results depend on the processing

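Rora, Maf and Hif1a kept the sign of their change between DMF and Ctrl under all 27 alternatives, but their calls depended on the fit. With only the 6 libraries compared, 0 of the 6 regulators passed for DMF against Ctrl, with 48 genes in all, and 5 genes passed for DMF + GSH against DMF. Leaving out 1 library gave 0 to 3 regulators and 2 to 1513 genes for DMF against Ctrl (0 regulators without Ctrl replicate 1, DMF replicate 1 or 3, or DMF + GSH replicate 1, and 1 without Ctrl replicate 2) and 0 to 3 regulators and 0 to 977 genes for DMF + GSH against DMF. With the replicate block 3848, 3391 and 3 genes passed for DMF against Ctrl, DMF + GSH against DMF and DMF + GSH against Ctrl, with 3, 3 and 0 regulators. With the block and 1 library left out, 3 to 4 and 3 regulators and 2726 to 4044, 2310 to 3378 and 0 to 6 genes passed. For DMF + GSH against DMF, 1 regulator, Maf, passed with a pseudocount of 4, with no minimum, with TMM rescaling and with edgeR. There, 667 genes passed with no minimum and 34 without the batch term. Changes that turned sign with 1 library left out were all short of the threshold: Runx1 for DMF against Ctrl (−0.30 to 0), Ahr for DMF + GSH against DMF (−0.20 to 0.07) and, for DMF + GSH against Ctrl, Hif1a (−0.06 to 0.02), Maf (−0.18 to 0.01), Nfkbiz (−0.26 to 0.13) and Runx1 (−0.03 to 0.15). The block changed no call of the 6 regulators other than those of Rora, Maf and Hif1a for DMF + GSH against DMF, and the cause of these differences was not tested. edgeR called 830, 111 and 0 genes in the 3 comparisons. TMM moved the median of all genes by less than 0.01. Rora, with 139 to 363 reads per library, and Runx1, with 165 to 311, rest on the fewest reads.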
